A study of Homo sapiens with 12 samples.

Results

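Transcripts of sterol and fatty acid synthesis were followed after a short hairpin RNA against CYTH4 in the human lines MV4-11 and THP-1, both grown from acute myeloid leukaemia. The set held 35 of the 34626 genes in the deposited table, chosen by gene name. It comprised 7 genes of the mevalonate pathway, 11 of the sterol branch, 5 regulators of the sterol response, the sterol carrier STARD4, 7 genes of fatty acid synthesis, the lipin LPIN1, and ABCA1, ABCG1 and MYLIP, 3 targets of the liver X receptors (LXR). There were 4 groups of 3 libraries each: MV4-11 with shCYTH4, MV4-11 with shControl, THP-1 with shCYTH4 and THP-1 with shControl. CYTH4 encodes a cytohesin, a protein that loads ARF GTPases with GTP, and shControl is the control hairpin. All groups carried a hairpin, and no untreated cells are among the libraries. The labels do not say how many hairpin sequences were used, how long after transduction cells were taken, or whether separate cultures gave the 3 libraries of each group. The p-values therefore measure the spread between these libraries, which may be technical.

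Cells build cholesterol from acetyl-CoA through mevalonate, the isoprenoids and squalene, and build fatty acids from the same precursor through malonyl-CoA. When membrane sterol runs low, SCAP escorts the membrane-bound factors SREBF2 and SREBF1 from the endoplasmic reticulum to the Golgi, where they are cut and then enter the nucleus; SREBF2 acts mainly on sterol genes and SREBF1 mainly on fatty acid genes. INSIG1 and INSIG2 hold SCAP back when sterol is plentiful. Oxidised sterols activate LXR, which raises the cholesterol exporters ABCA1 and ABCG1 and the ubiquitin ligase MYLIP. Sterol synthesis genes under SREBF2 and efflux genes are therefore known to move in opposite directions when cell sterol changes.

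SREBF proteins are known to bind the sterol regulatory element together with NF-Y, which binds CCAAT, and the windows around 4 gene starts are shown. FDPS was called in THP-1, SC5D and HMGCS1 had the largest gaps between the lines among synthesis genes, and SREBF2 held the sterol regulatory element searched for. FDFT1 and ACAT2, also called below, had no window in the reference. Neither had SQLE, FASN and ABCG1, so these 5 members were not searched and the shares below leave them out. The windows run from 250 bases before to 50 bases after the start, from RefSeq on GRCh38.p14, and are written 5′ to 3′ on the gene's strand. FDPS lies at chr1:155308616-155308915 (+ strand), SREBF2 at chr22:41832855-41833154 (+ strand), SC5D at chr11:121292521-121292820 (+ strand) and HMGCS1 at chr5:43313363-43313662 (− strand). Capitals mark CCAAT, or ATTGG where it lies on the other strand, and TCACNCCAC, a form of the sterol regulatory element.
FDPS: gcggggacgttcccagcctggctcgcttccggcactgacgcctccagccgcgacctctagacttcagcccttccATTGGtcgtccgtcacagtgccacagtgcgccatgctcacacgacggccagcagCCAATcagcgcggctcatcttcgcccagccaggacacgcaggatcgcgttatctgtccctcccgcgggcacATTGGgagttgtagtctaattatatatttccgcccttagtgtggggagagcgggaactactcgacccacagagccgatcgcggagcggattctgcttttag
SREBF2: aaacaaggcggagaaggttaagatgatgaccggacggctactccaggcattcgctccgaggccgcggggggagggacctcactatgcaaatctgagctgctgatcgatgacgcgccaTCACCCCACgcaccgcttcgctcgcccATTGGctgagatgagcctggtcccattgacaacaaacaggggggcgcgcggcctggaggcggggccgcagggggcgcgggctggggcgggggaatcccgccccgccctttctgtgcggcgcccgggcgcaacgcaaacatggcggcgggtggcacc
SC5D: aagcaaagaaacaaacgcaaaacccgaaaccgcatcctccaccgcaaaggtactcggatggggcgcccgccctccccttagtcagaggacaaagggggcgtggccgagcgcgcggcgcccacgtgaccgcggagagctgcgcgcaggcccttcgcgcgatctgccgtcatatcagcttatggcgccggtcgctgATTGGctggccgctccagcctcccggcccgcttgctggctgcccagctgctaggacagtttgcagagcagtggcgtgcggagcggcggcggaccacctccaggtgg
HMGCS1: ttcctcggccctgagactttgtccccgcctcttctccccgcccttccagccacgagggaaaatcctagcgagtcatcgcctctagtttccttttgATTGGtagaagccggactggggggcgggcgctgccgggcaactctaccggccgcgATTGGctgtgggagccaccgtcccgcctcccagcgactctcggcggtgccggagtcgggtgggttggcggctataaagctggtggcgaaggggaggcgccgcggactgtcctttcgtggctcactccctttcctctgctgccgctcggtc

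The FDPS window held 3 CCAAT boxes, HMGCS1 held 2, and SC5D and SREBF2 held 1 each. SREBF2 was the 1 member of 30 with a window in which TCACNCCAC was found, starting 133 bases before the gene start, against 1.39% of the 27305 genes in the reference table. Both shares count a gene once if any of its windows holds the letters. CCAAT was found on either strand for 13 of 15 mevalonate and sterol branch genes (86.7%), 4 of 6 fatty acid genes (66.7%) and 1 of 2 LXR targets, against 39.7% of all genes. The Sp1 box GGGCGG, searched on both strands, was found for 29 of 30 members, against 48.3% of all genes. The shares of all genes take in every gene of the reference, expressed or not, and were not matched to the members. They do not show that a motif is particular to these genes. The LXR element in the form of a direct repeat of AGGTCA with 4 bases between the copies was found for 0 of 30 members and for 0.0256% of all genes. No match to 1 of these motifs shared a base with a match to another in the members' windows. A match is a string of letters in the window, and its absence says nothing about binding.

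Depth was even, at 71730093 to 77782719 estimated counts per library, and 10251 to 11703 genes per library had at least 1 FPKM, a fragment number corrected for transcript length and sequencing depth. CYTH4 itself was measured at 15.5, 20.7 and 22.3 FPKM in the MV4-11 libraries labelled shCYTH4, against 20.9, 16.0 and 18.1 FPKM in MV4-11 shControl (log2 change 0.01, SE 0.19, edgeR adjusted p = 0.988). In THP-1 it was at 15.7, 15.0 and 15.7 FPKM with shCYTH4, against 25.7, 32.2 and 21.0 FPKM with shControl, and fell (log2 change -0.89, SE 0.19, adjusted p = 0.0338). The MV4-11 label is therefore not borne out by the level of its target. Every MV4-11 shCYTH4 value or response below belongs to libraries that carry that label. Of 8 myeloid markers, 7 or 8 were at 1 FPKM or more in each library, and their summed level was 1350 to 1407 FPKM in MV4-11 shCYTH4, 1936 to 2136 in MV4-11 shControl, 948 to 1156 in THP-1 shCYTH4 and 599 to 678 in THP-1 shControl. LYZ, lysozyme, the most abundant of them, fell in MV4-11 shCYTH4 (log2 change -0.68, adjusted p = 0.0107) and rose in THP-1 shCYTH4 (0.98, adjusted p = 0.00188). The sums move largely with LYZ, at 1097 to 1147 FPKM in MV4-11 shCYTH4 and 648 to 738 in THP-1 shCYTH4. No other myeloid marker was called with shCYTH4 in either line. CD14, CSF1R and MPO were measured lower in THP-1 and CD14 higher in MV4-11, against the direction of LYZ, and the rest leaned with it. Of 13 markers of other cell types 11 were in the table, with 1 to 3 at 1 FPKM or more and 2 to 5 at 0 in a library, and sums of 15.6 to 16.8 FPKM in MV4-11 shCYTH4, 14.5 to 15.5 in MV4-11 shControl, 43.1 to 45.0 in THP-1 shCYTH4 and 36.0 to 44.1 in THP-1 shControl, mostly PECAM1. KRT18, an epithelial keratin, had 0.016, 0 and 0.017 FPKM in THP-1 shCYTH4, against 0.481, 0.596 and 0.498 FPKM in THP-1 shControl, and fell there (log2 change -5.28, adjusted p = 3.99e-05). EPCAM, an epithelial adhesion protein too low to test, had 0.022, 0.042 and 0 FPKM in THP-1 shCYTH4, against 0.514, 0.646 and 0.390 FPKM in THP-1 shControl. CD3D, CD3E and HBB were at 0 in most libraries and at most 0.151 FPKM in any. The part of these shifts in the results was not tested, and in bulk RNA fewer cells of a type and less RNA per cell cannot be told apart. THP-1 shCYTH4 replicate 3 stood apart: it lay above replicates 1 and 2 for 26 of the 33 members tested. The share over all tested genes was not counted. Over those genes, the SD of its log2 difference was 0.60 from replicate 1 and 0.62 from replicate 2, against 0.38 between them. Replicate 1 of MV4-11 shCYTH4 (0.59 and 0.61) and of MV4-11 shControl (0.62 from both) lay as far from its group. The THP-1 changes of the members described are also given without THP-1 shCYTH4 replicate 3. That library was picked from the members' own values, so adjusted p-values without it are description and add no support to a change. CYTH4 did not set it apart, at 15.7 FPKM against 15.7 and 15.0 FPKM in replicates 1 and 2. Leaving out replicate 1 or 2 instead left 0 members called in THP-1.

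In THP-1, shCYTH4 lowered 2 members past the threshold: FDPS, which makes farnesyl diphosphate, and FDFT1, squalene synthase, which commits it to sterols. FDPS lay at 59.0% and FDFT1 at 62.3% of the level in the control cells, by the fitted fold. Most other members were measured lower as well, 28 of 33 below 0 on the log2 scale with a median of -0.36, without passing the test one by one. In the MV4-11 libraries labelled shCYTH4 the members leaned the other way, 26 of 33 above 0 with a median of 0.32, and 0 passed. Without THP-1 shCYTH4 replicate 3, 30 of 33 were below 0 in THP-1 with a median of -0.47. The lines differed past the threshold for FDPS, FDFT1 and ACAT2, all with the more positive response in MV4-11.

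The test was edgeR's quasi-likelihood test on the estimated counts, with Benjamini-Hochberg adjustment over 12350 genes with at least 1 FPKM in at least 3 libraries, and calls were made where the adjusted p was under 0.05. ELOVL6 and ABCG1 did not reach that level and were not tested. The count of 2 called among 33 members (6.06%) compares with 1.65% of all tested genes called in THP-1, 1.04% being called lower as both members were, and 15 members had an unadjusted p under 0.05, against 16.0% of all tested genes. For MV4-11, 0 members were called, against 1.13% of all tested genes. There 6 had an unadjusted p under 0.05, against 13.9% of all tested genes. DESeq2 called 1 (SC5D), against 3.65% of all tested genes, and limma on log2 FPKM called 0. For the difference of responses, 3 of 33 (9.09%) were called, against 0.866% of all tested genes; all 3 were higher in MV4-11, against 0.413%, and 0 lower, against 0.453%. All tested genes had medians of 7.5e-04 in MV4-11 and -0.0087 in THP-1 on the same log2 scale. Both responses of 22 members pointed in opposite directions with MV4-11 above 0 and THP-1 below, 1 member had the reverse, 6 were below 0 in both lines and 4 above 0 in both.

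**Figure D1:**
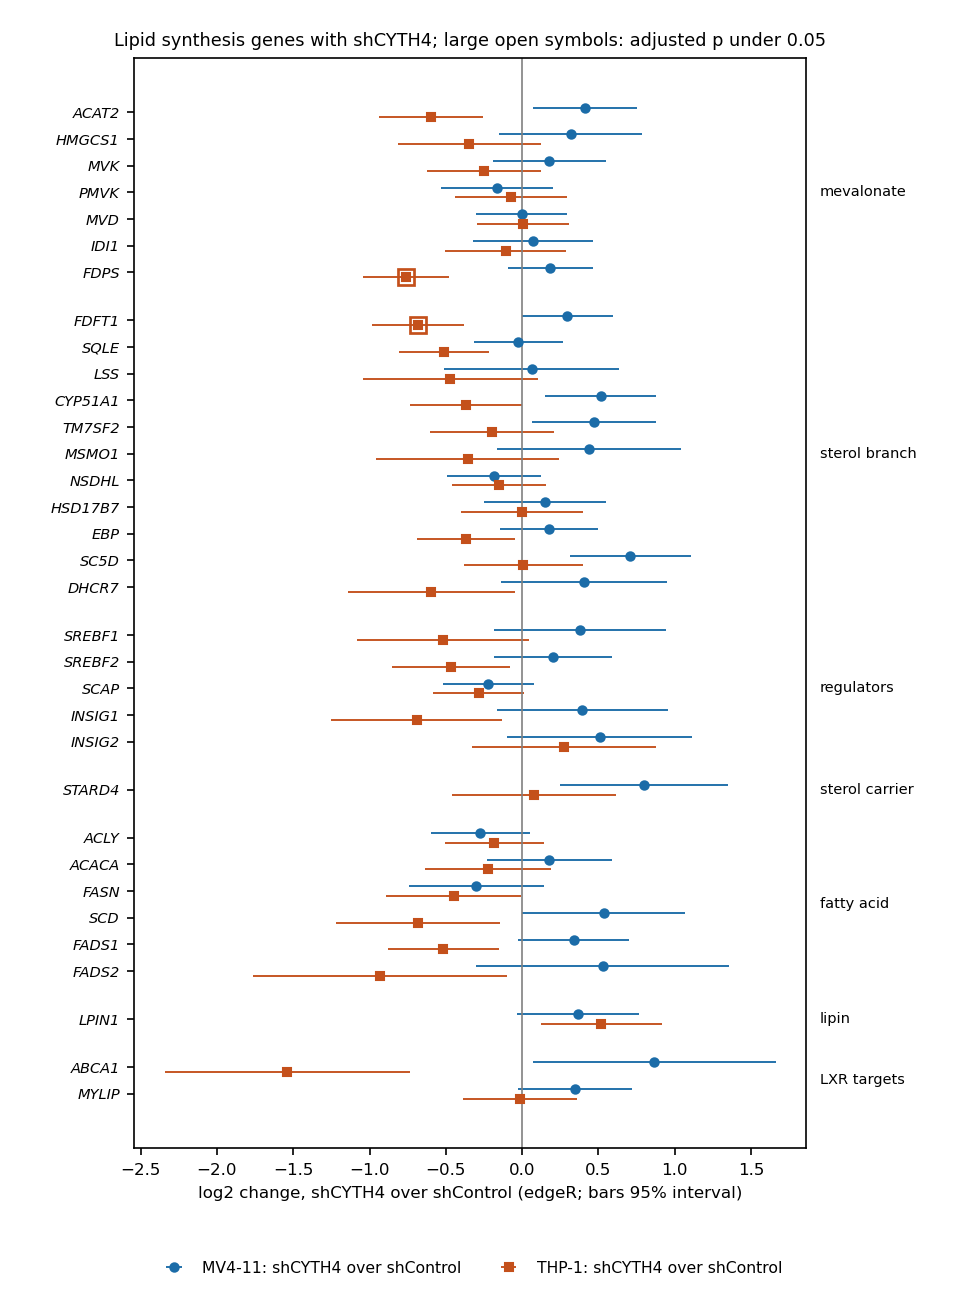
Fitted log2 change with shCYTH4 over shControl for the 33 tested members, MV4-11 in circles and THP-1 in squares, with 95% intervals; large open symbols mark adjusted p under 0.05. FDPS and FDFT1 in THP-1 carry the large symbols, and most pairs have the MV4-11 circle to the right of the THP-1 square.

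Positions are those of the deposited table, whose build is not stated. Among the mevalonate genes, FDPS (ENSG00000160752, chromosome 1, 155308748 to 155320666) had 64.2, 60.5 and 57.5 FPKM in MV4-11 shCYTH4, against 52.7, 50.2 and 48.9 FPKM in MV4-11 shControl. It had 54.3, 54.3 and 63.2 FPKM in THP-1 shCYTH4, against 83.4, 100.3 and 84.5 FPKM in THP-1 shControl. In neither line did the groups overlap, with the shCYTH4 libraries higher in MV4-11 and lower in THP-1. FDPS fell in THP-1 (log2 change -0.76, SE 0.13, adjusted p = 0.0130), while the MV4-11 change was 0.18 (SE 0.13, adjusted p = 0.556). The responses differed by 0.94 on the log2 scale (SE 0.19, 95% interval 0.55 to 1.34, adjusted p = 0.0288). With THP-1 shCYTH4 replicate 3 left out the THP-1 change was -0.81 (adjusted p = 0.00359). That call did not hold without THP-1 shControl replicate 2 (adjusted p = 0.0643) or shCYTH4 replicate 1 (0.0863) or 2 (0.0686). The call of the difference did not hold without any of 7 libraries (adjusted p = 0.0520 to 0.0872): replicates 1 and 2 of THP-1 shCYTH4, replicates 2 and 3 of each shControl group, and MV4-11 shCYTH4 replicate 2. FDPS overlaps RUSC1-AS1, an antisense gene at a mean of 1.5 FPKM, and has near-identical processed copies in the genome, so its level is uncertain to the extent that reads were shared.

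ACAT2 (ENSG00000120437, chromosome 6, 159762045 to 159779112), the cytosolic thiolase that starts the pathway by joining acetyl-CoA units, had 45.6, 39.4 and 39.1 FPKM in MV4-11 shCYTH4, against 28.1, 31.5 and 28.7 FPKM in MV4-11 shControl. In THP-1 it had 18.6, 15.6 and 26.4 FPKM with shCYTH4, against 28.2, 28.9 and 27.2 FPKM with shControl. The shCYTH4 libraries were all above the controls in MV4-11 and all below them in THP-1, replicate 3 by little. Neither change passed alone (0.41, SE 0.16, adjusted p = 0.257 in MV4-11; -0.59, SE 0.16, adjusted p = 0.0753 in THP-1). Their difference did, at 1.01 (SE 0.23, adjusted p = 0.0495). With replicate 3 of THP-1 shCYTH4 left out the THP-1 change was -0.81 (adjusted p = 0.00324) and the difference 1.23 (adjusted p = 0.00106). Leaving out any other single library ended the call of the difference, with adjusted p-values of 0.0692 to 0.153. ACAT2 overlaps TCP1 on the opposite strand, at a mean of 72.4 FPKM, so its level is uncertain.

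HMGCS1, which condenses acetoacetyl-CoA to the precursor of mevalonate, had 6.75, 5.42 and 5.69 FPKM in MV4-11 shCYTH4, against 2.84, 5.85 and 4.98 FPKM in MV4-11 shControl. It had 11.5, 10.6 and 16.6 FPKM in THP-1 shCYTH4, against 18.9, 12.6 and 14.3 FPKM in THP-1 shControl. The groups overlapped in both lines, and neither change passed (0.32, SE 0.22, adjusted p = 0.541 in MV4-11; -0.35, SE 0.22, adjusted p = 0.489 in THP-1). The THP-1 change of HMGCS1 was -0.54 (adjusted p = 0.174) without shCYTH4 replicate 3. The kinases MVK and PMVK, the decarboxylase MVD and the isomerase IDI1 lie between HMGCS1 and FDPS in the pathway. Their changes ran from -0.16 to 0.18 in MV4-11 and from -0.25 to 0.01 in THP-1, none past the threshold and with overlapping groups throughout. In THP-1 they ran from -0.33 (MVK) to 0.07 (MVD) without shCYTH4 replicate 3. MVK overlaps MMAB on the opposite strand.

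In the sterol branch, FDFT1 (ENSG00000079459) had 104.7, 94.3 and 86.9 FPKM in MV4-11 shCYTH4, against 71.9, 80.8 and 67.9 FPKM in MV4-11 shControl. It had 50.4, 51.4 and 66.5 FPKM in THP-1 shCYTH4, against 81.9, 90.7 and 76.6 FPKM in THP-1 shControl. As for FDPS, the shCYTH4 libraries were the higher in MV4-11 and the lower in THP-1 with no overlap. FDFT1 fell in THP-1 (log2 change -0.68, SE 0.14, adjusted p = 0.0323), and the MV4-11 change was 0.30 (SE 0.14, adjusted p = 0.362). The difference of responses was 0.98 (SE 0.20, adjusted p = 0.0331). When replicate 3 of THP-1 shCYTH4 was left out the THP-1 change was -0.80 (adjusted p = 0.00422). That call was lost without any of 5 other libraries: shCYTH4 replicate 1 (0.190) or 2 (0.14), shControl replicate 2 (0.128) or 3 (0.0655), and MV4-11 shCYTH4 replicate 2 (0.0541). It was also lost when the THP-1 libraries were fitted alone (0.0568). The difference was not called without any of the same 7 libraries as for FDPS or without THP-1 shControl replicate 1 (adjusted p = 0.0533 to 0.103).

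SC5D (ENSG00000109929, chromosome 11, 121292681 to 121313410), the sterol desaturase acting near the end of the branch, had 1.24, 0.966 and 0.934 FPKM in MV4-11 shCYTH4, against 0.480, 0.631 and 0.711 FPKM in MV4-11 shControl. It had 2.02, 2.53 and 3.09 FPKM in THP-1 shCYTH4, against 2.59, 2.09 and 2.36 FPKM in THP-1 shControl. The groups were apart in MV4-11 and overlapped in THP-1. The MV4-11 change of 0.71 (SE 0.19, adjusted p = 0.0798) missed the threshold by edgeR and passed by DESeq2 (adjusted p = 0.0148). It also passed by edgeR once THP-1 shCYTH4 replicate 3 was left out (adjusted p = 0.0353). That library bears on the MV4-11 change mainly through the shared estimate of the spread, and fitting the MV4-11 libraries alone called 0 members. The THP-1 change was 0.01 with a 95% interval of -0.38 to 0.40, and -0.13 (adjusted p = 0.765) without that library.

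CYP51A1, lanosterol demethylase, had 12.9, 10.0 and 9.59 FPKM in MV4-11 shCYTH4, against 5.72, 8.20 and 7.76 FPKM in MV4-11 shControl. It had 6.52, 7.45 and 9.50 FPKM in THP-1 shCYTH4, against 10.8, 8.36 and 8.89 FPKM in THP-1 shControl. The shCYTH4 libraries were all above the controls in MV4-11, while replicate 3 joined the control range in THP-1 (0.51, SE 0.17, adjusted p = 0.185 in MV4-11; -0.37, SE 0.17, adjusted p = 0.309 in THP-1). Without replicate 3 the THP-1 change of CYP51A1 was -0.50 (adjusted p = 0.105). DHCR7, which reduces the last precursor to cholesterol, had 4.84, 9.83 and 9.41 FPKM in MV4-11 shCYTH4, against 6.17, 5.85 and 5.21 FPKM in MV4-11 shControl. In THP-1 it had 4.92, 4.85 and 7.39 FPKM with shCYTH4, against 6.65, 9.56 and 7.57 FPKM with shControl. Groups overlapped in both lines, with MV4-11 shCYTH4 replicate 1 under every MV4-11 control (0.41, SE 0.25, adjusted p = 0.495 in MV4-11; -0.59, SE 0.25, adjusted p = 0.267 in THP-1). The THP-1 change of DHCR7 was -0.79 (adjusted p = 0.105) without replicate 3.

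SQLE, squalene epoxidase, is given for its place beside FDFT1 and was chosen after its values were seen. It had 30.7, 25.6 and 23.7 FPKM in MV4-11 shCYTH4, against 22.5, 28.6 and 26.1 FPKM in MV4-11 shControl, which overlapped. In THP-1 it had 15.9, 17.2 and 21.0 FPKM with shCYTH4, all below the 26.0, 21.5 and 23.9 FPKM with shControl (-0.51, SE 0.14, adjusted p = 0.0760). SQLE was called lower in THP-1 once shCYTH4 replicate 3 was left out (-0.61, adjusted p = 0.0183). The other members of the branch were LSS, TM7SF2, MSMO1, NSDHL, HSD17B7 and EBP, whose changes ran from -0.18 to 0.47 in MV4-11 and from -0.47 to -0.00 in THP-1, none of them called. Without THP-1 shCYTH4 replicate 3, LSS was called lower in THP-1 (-0.91, adjusted p = 0.0167), and the others ran from -0.76 (MSMO1) to -0.02 (NSDHL) without passing. Of these, the groups were apart for TM7SF2 in MV4-11, where shCYTH4 was higher, although TM7SF2 overlaps VPS51 on the same strand. HSD17B7 has a near-identical copy in the genome and is uncertain. MSMO1 had 6.08, 5.24 and 4.40 FPKM in MV4-11 shCYTH4 and 3.64, 5.11 and 8.95 FPKM in THP-1 shCYTH4, NSDHL 24.0, 20.5 and 20.3 FPKM in MV4-11 shCYTH4 and 14.7, 15.9 and 11.9 FPKM in THP-1 shCYTH4, and HSD17B7 1.78, 2.03 and 1.45 FPKM in MV4-11 shCYTH4 and 2.11, 2.21 and 2.60 FPKM in THP-1 shCYTH4. All of these overlapped their line's controls, whose values are given with the line comparison.

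**Figure D2:**
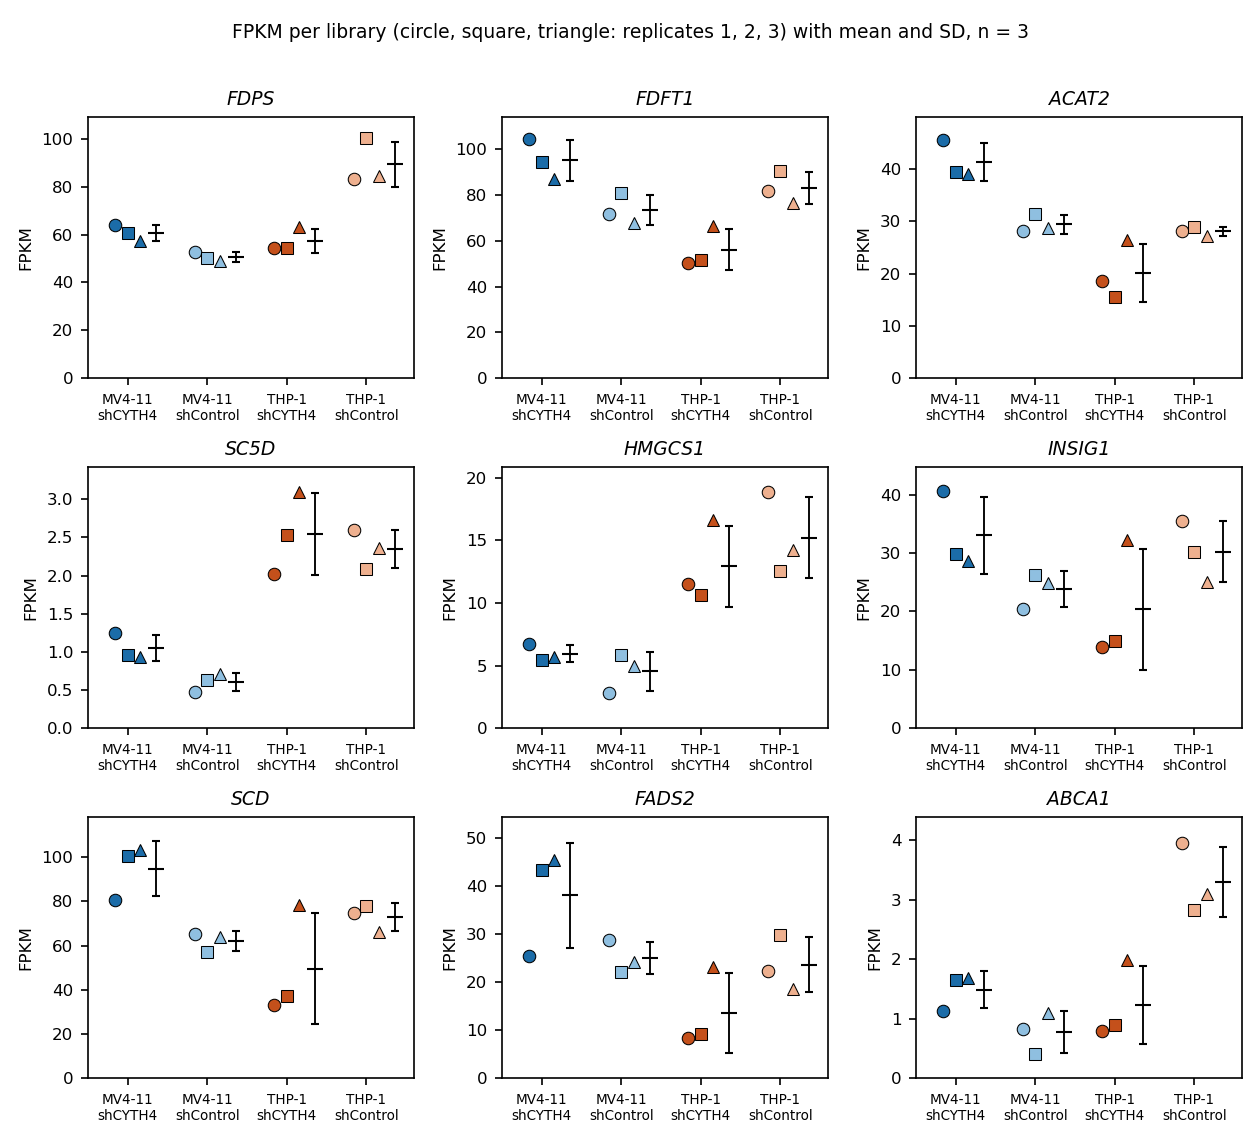
FPKM of 9 members in every library, by group, with replicates 1, 2 and 3 as circle, square and triangle and the mean with SD (n = 3) beside them. The triangle of THP-1 shCYTH4 lies above its circle and square in all 9 panels, and for FDPS, FDFT1, ACAT2 and ABCA1 it still lies below every THP-1 control.

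The regulators did not pass the test in either line, 4 of 5 being above 0 in MV4-11 and 4 of 5 below 0 in THP-1. INSIG1, itself a target of SREBF2 and the member that retains SCAP, had 40.6, 29.7 and 28.6 FPKM in MV4-11 shCYTH4, against 20.4, 26.2 and 24.8 FPKM in MV4-11 shControl. It had 13.9, 14.9 and 32.3 FPKM in THP-1 shCYTH4, against 35.4, 30.2 and 25.1 FPKM in THP-1 shControl. Replicates 1 and 2 of THP-1 shCYTH4 lay far below the controls and replicate 3 within their range. The changes were 0.39 (SE 0.26, adjusted p = 0.517) in MV4-11 and -0.69 (SE 0.26, adjusted p = 0.209) in THP-1, or -1.16 (adjusted p = 0.00201) in THP-1 without shCYTH4 replicate 3. INSIG2, its paralog, had 1.28, 1.22 and 1.07 FPKM in MV4-11 shCYTH4, against 0.560, 0.692 and 1.14 FPKM in MV4-11 shControl. In THP-1 INSIG2 had 0.956, 1.05 and 1.89 FPKM with shCYTH4, against 1.04, 0.908 and 1.03 FPKM with shControl. Groups overlapped in both lines (0.51, SE 0.29, adjusted p = 0.443 in MV4-11; 0.27, SE 0.28, adjusted p = 0.715 in THP-1). The sign of INSIG2 in THP-1 turned without replicate 3 (-0.07, adjusted p = 0.927).

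SREBF1, the factor for fatty acid genes, had 24.7, 27.2 and 29.1 FPKM in MV4-11 shCYTH4, against 21.9, 17.2 and 19.8 FPKM in MV4-11 shControl. It had 8.64, 9.75 and 21.1 FPKM in THP-1 shCYTH4, against 16.4, 19.6 and 15.9 FPKM in THP-1 shControl. The groups were apart in MV4-11, and in THP-1 replicate 3 lay above every control and replicates 1 and 2 below. The changes were 0.38 (SE 0.26, adjusted p = 0.540) in MV4-11 and -0.52 (SE 0.26, adjusted p = 0.361) in THP-1, or -1.0 (adjusted p = 0.00290) in THP-1 without replicate 3. SREBF1 overlaps RAI1 on the opposite strand and is uncertain. SREBF2, described for its role and outside the rule for named genes, had 43.2, 64.8 and 69.3 FPKM in MV4-11 shCYTH4, against 52.0, 48.3 and 45.6 FPKM in MV4-11 shControl. In THP-1 it had 45.9, 47.3 and 63.6 FPKM with shCYTH4, against 64.8, 73.4 and 61.1 FPKM with shControl. Its groups overlapped in both lines, by MV4-11 replicate 1 and THP-1 replicate 3 of shCYTH4 (0.20, adjusted p = 0.650 in MV4-11; -0.46, adjusted p = 0.219 in THP-1). Without replicate 3 the THP-1 change of SREBF2 was -0.60 (adjusted p = 0.0710). SCAP had a fitted log2 value of -0.22 (adjusted p = 0.50) in MV4-11 and -0.28 (adjusted p = 0.340) in THP-1, or -0.25 (adjusted p = 0.369) there without replicate 3.

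STARD4, which carries sterol between membranes, had 1.78, 1.48 and 1.48 FPKM in MV4-11 shCYTH4, all above the 0.599, 1.02 and 0.971 FPKM in MV4-11 shControl (0.80, SE 0.26, adjusted p = 0.167). In THP-1 it had 2.21, 2.42 and 4.08 FPKM with shCYTH4, overlapping the 3.47, 2.15 and 2.04 FPKM with shControl (0.08, SE 0.25, adjusted p = 0.933). The THP-1 value of STARD4 turned to -0.22 (adjusted p = 0.672) without shCYTH4 replicate 3.

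No fatty acid gene was called in either line, and all 6 that were tested were below 0 in THP-1 and 4 of 6 above 0 in MV4-11. SCD, the desaturase that makes oleate and palmitoleate, had 80.8, 100.5 and 103.3 FPKM in MV4-11 shCYTH4, against 65.4, 57.1 and 64.0 FPKM in MV4-11 shControl. It had 33.0, 37.2 and 78.5 FPKM in THP-1 shCYTH4, against 74.9, 78.1 and 66.1 FPKM in THP-1 shControl. The MV4-11 groups were apart, while THP-1 replicate 3 was the highest of its line and replicates 1 and 2 were the lowest. The changes were 0.53 (SE 0.25, adjusted p = 0.36) in MV4-11 and -0.68 (SE 0.25, adjusted p = 0.192) in THP-1. Both passed when THP-1 shCYTH4 replicate 3 was left out, at 0.55 (adjusted p = 0.0375) in MV4-11 and -1.15 (adjusted p = 8.52e-04) in THP-1. No MV4-11 library was removed there: the MV4-11 change hardly moved while its SE fell to 0.13, through the shared estimate of the spread. MV4-11 calls over all tested genes then rose to 398, against 139 with that library. Fitting the MV4-11 libraries alone called 0 members.

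FADS2, the desaturase at the first step of polyunsaturated fatty acid synthesis, had 25.5, 43.3 and 45.3 FPKM in MV4-11 shCYTH4, against 28.6, 22.1 and 24.2 FPKM in MV4-11 shControl. It had 8.42, 9.16 and 23.0 FPKM in THP-1 shCYTH4, against 22.4, 29.9 and 18.6 FPKM in THP-1 shControl. Of the shCYTH4 libraries, MV4-11 replicate 1 and THP-1 replicate 3 lay within the range of their line's controls and the others outside it. The changes were 0.53 (SE 0.38, adjusted p = 0.560) in MV4-11 and -0.93 (SE 0.38, adjusted p = 0.259) in THP-1, or -1.52 (adjusted p = 0.00755) in THP-1 without replicate 3. FADS2 overlaps FEN1 on the same strand and FADS1 on the other, so both FADS genes are uncertain. FADS1, the next desaturase, had a fitted log2 value of 0.34 (adjusted p = 0.393) in MV4-11 and -0.52 (adjusted p = 0.142) in THP-1. FADS1 was called lower in THP-1 without replicate 3 (-0.70, adjusted p = 0.0203).

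ACLY, which makes cytosolic acetyl-CoA from citrate, and ACACA and FASN, which make malonyl-CoA and palmitate from it, had smaller values. Their fitted changes ran from -0.30 to 0.18 in MV4-11 and from -0.45 to -0.18 in THP-1, and none passed. Without THP-1 shCYTH4 replicate 3 they ran from -0.47 (FASN) to -0.14 (ACLY) in THP-1, again with none past the threshold. FASN in THP-1 was at 66.6, 63.4 and 71.2 FPKM with shCYTH4, below each of the 76.5, 100.05 and 76.2 FPKM with shControl (adjusted p = 0.306). In MV4-11 its groups overlapped, at 50.7, 83.1 and 97.2 FPKM with shCYTH4, against 100.3, 88.7 and 80.5 FPKM with shControl (adjusted p = 0.541). ELOVL6, the elongase after FASN, was at 0.486, 0.407 and 0.414 FPKM in MV4-11 shCYTH4, against 0.194, 0.499 and 0.410 FPKM in MV4-11 shControl, and at most 0.026 FPKM in any THP-1 library. LPIN1, a phosphatidate phosphatase, had 0.835, 1.25 and 1.24 FPKM in MV4-11 shCYTH4, against 0.736, 0.762 and 0.945 FPKM in MV4-11 shControl. In THP-1 LPIN1 had 1.68, 1.99 and 1.92 FPKM with shCYTH4, above each of the 1.37, 0.980 and 1.27 FPKM with shControl. It was measured higher in both lines without passing (0.37, SE 0.19, adjusted p = 0.399 in MV4-11; 0.52, SE 0.19, adjusted p = 0.178 in THP-1). LPIN1 stood at 0.52 in THP-1 without replicate 3 as well (adjusted p = 0.157).

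Of the LXR targets, ABCA1 (ENSG00000165029, chromosome 9, 104781006 to 104928155) had the largest fitted changes of the 33 members in both lines, and neither passed. It had 1.13, 1.64 and 1.68 FPKM in MV4-11 shCYTH4, against 0.821, 0.407 and 1.10 FPKM in MV4-11 shControl. It had 0.799, 0.903 and 1.98 FPKM in THP-1 shCYTH4, against 3.96, 2.82 and 3.10 FPKM in THP-1 shControl. The groups were apart in both lines, the shCYTH4 libraries being higher in MV4-11 and lower in THP-1. The changes were 0.87 (SE 0.37, adjusted p = 0.317) in MV4-11 and -1.54 (SE 0.37, adjusted p = 0.0602) in THP-1, and their difference was 2.40 (SE 0.52, adjusted p = 0.0542). The THP-1 change passed by DESeq2 (adjusted p = 5.25e-04), by limma on log2(FPKM + 1) (adjusted p = 0.0210) and once THP-1 shCYTH4 replicate 3 was left out (-2.03, adjusted p = 0.00430). It also passed without MV4-11 shControl replicate 2 (adjusted p = 0.0302) or MV4-11 shCYTH4 replicate 1 (adjusted p = 0.0482), which enter the estimate of the spread. Of 22 alternatives, the THP-1 change of ABCA1 passed in 7 and was not called in 15. The pass without THP-1 shCYTH4 replicate 3 adds no support, as that library was picked from the members' own values.

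MYLIP, which marks lipoprotein receptors for degradation, had 13.6, 16.7 and 15.8 FPKM in MV4-11 shCYTH4, all above the 12, 9.74 and 12.6 FPKM in MV4-11 shControl (0.35, SE 0.18, adjusted p = 0.396). In THP-1 it had 6.48, 6.73 and 8.96 FPKM with shCYTH4, overlapping the 8.61, 5.49 and 6.68 FPKM with shControl (-0.01, SE 0.18, 95% interval -0.39 to 0.36, adjusted p = 0.986); without replicate 3 it was -0.15 (adjusted p = 0.698). Its sign there was positive under 5 other settings of the processing and without some single libraries. ABCG1 was too low to test, at 0.239, 0.293 and 0.327 FPKM in MV4-11 shCYTH4, against 0.305, 0.064 and 0.203 FPKM in MV4-11 shControl. In THP-1 it was at 0.043, 0.031 and 0.042 FPKM with shCYTH4, below each of the 0.084, 0.148 and 0.080 FPKM with shControl.

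Set side by side, the mevalonate and sterol branch genes, the fatty acid genes and the LXR targets leaned the same way within a line. The median log2 change was 0.18 in MV4-11 and -0.35 in THP-1 for the 18 mevalonate and sterol branch genes. It was 0.26 in MV4-11 and -0.48 in THP-1 for the 6 fatty acid genes, and 0.61 in MV4-11 and -0.78 in THP-1 for ABCA1 and MYLIP, of which MYLIP was near 0 in THP-1. The 5 regulators had medians of 0.38 in MV4-11 and -0.46 in THP-1. Single libraries moved some of these medians. In MV4-11 the fatty acid median was 0.46 without shCYTH4 replicate 1, 0.15 without replicate 2, 0.17 without replicate 3 and 0.17 without shControl replicate 2. The sterol gene median was 0.27 without MV4-11 shCYTH4 replicate 3, and the median of ABCA1 and MYLIP was 0.40 without MV4-11 shControl replicate 2. In THP-1 the sterol gene median was -0.21 without shCYTH4 replicate 1. Without THP-1 shCYTH4 replicate 3 the THP-1 medians were -0.42 for sterol genes, -0.58 for fatty acid genes and -1.09 for ABCA1 and MYLIP. Groups that did not overlap were lower with shCYTH4 in THP-1 for 6 members, FDPS, ACAT2, FDFT1, SQLE, FASN and ABCA1, against 6.63% of all tested genes. LPIN1 alone was apart and higher in THP-1, against 17.1% of all tested genes. In MV4-11, 12 members were apart and higher, against 16.0% of all tested genes, and 0 were apart and lower, against 8.84%. The classes were not tested against one another.

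Libraries of 1 group did not move all classes alike. In MV4-11 shCYTH4, replicate 1 was the highest of the 3 for 13 of 18 mevalonate and sterol branch genes and the lowest for all 6 tested fatty acid genes. Relative to the mean of the MV4-11 controls, the class median in its 3 libraries was 0.34, 0.21 and 0.14 for the sterol genes, against 0.04, 0.08 and -0.09 in the controls. For the fatty acid genes it was -0.27, 0.49 and 0.44, against 0.13, -0.16 and -0.04. In THP-1 shCYTH4 the sterol gene medians were -0.44, -0.41 and -0.10, against -0.07, 0.17 and -0.07 in THP-1 shControl. The fatty acid medians there were -0.57, -0.60 and -0.17, against -0.07, 0.16 and -0.11. For ABCA1 and MYLIP they were 0.36, 0.81 and 0.78 in MV4-11 shCYTH4, against 0.20, -0.53 and 0.33, and -1.15, -1.03 and -0.30 in THP-1 shCYTH4, against 0.25, -0.19 and -0.06. For the regulators they were -0.63, -0.58 and -0.03 in THP-1 shCYTH4, against -0.09, 0.22 and -0.13. By the medians of these 4 classes, replicates 1 and 2 of THP-1 shCYTH4 were the lowest libraries of the line. Replicate 3 lay between them and the controls for sterol genes, fatty acid genes and the LXR targets, and within the control range for the regulators. Single members of these classes did not all follow this order. Replicate 3 was the lowest THP-1 shCYTH4 library for EBP (-0.50), NSDHL (-0.43), PMVK (-0.33), SCAP (-0.32), ACLY (-0.24) and MVD (-0.09). Outside the 4 classes, LPIN1 and STARD4 did not follow it either. All shCYTH4 libraries were above the THP-1 controls for LPIN1. For STARD4 replicates 1 and 2 lay within the control range and replicate 3 above it.

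**Figure D3:**
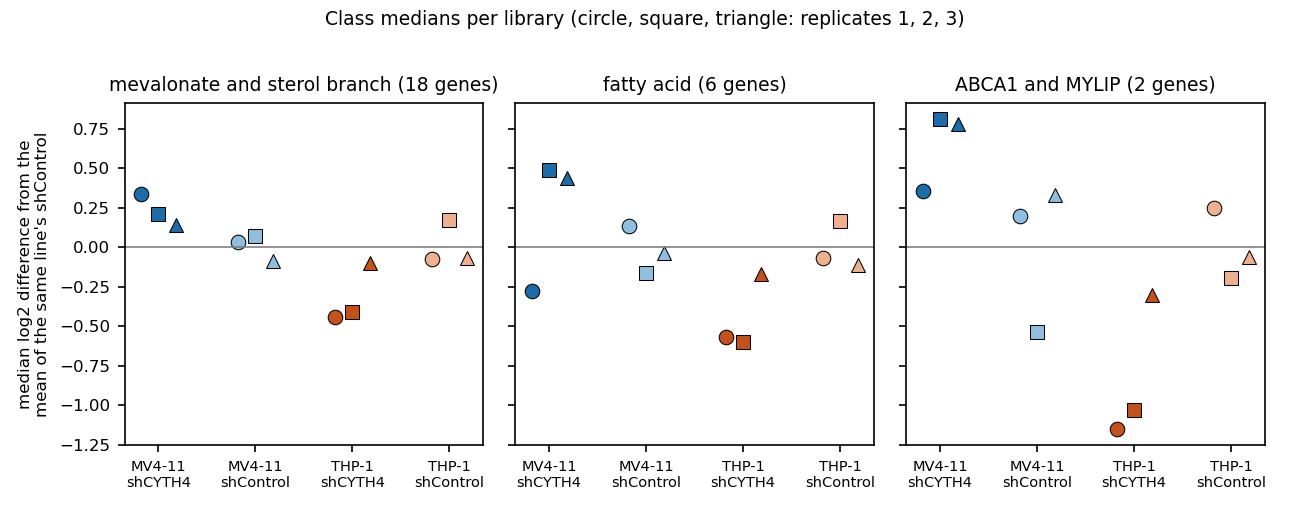
Median log2 difference from the mean of the same line's shControl libraries for each class, in every library; replicates 1, 2 and 3 are circle, square and triangle. MV4-11 shCYTH4 replicate 1 is the highest point of its group for sterol genes (0.34) and the lowest for fatty acid genes (-0.27).

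Summed over the 18 mevalonate and sterol branch genes, the level was 433.5, 389.8 and 374.0 FPKM in MV4-11 shCYTH4, against 333.3, 353.8 and 324.0 FPKM in MV4-11 shControl. It was 305.6, 307.1 and 353.1 FPKM in THP-1 shCYTH4, against 398.1, 436.9 and 388.7 FPKM in THP-1 shControl. The sums did not overlap in either line, higher with shCYTH4 in MV4-11 and lower in THP-1. They weigh abundant genes most, and FDFT1 and FDPS were the highest of the 18, at means of 77.0 and 64.5 FPKM. Both were called in THP-1 above, so the sums are no separate result and do not show a shift of all 18 genes. Summed over the 7 fatty acid genes, the level was 226.3, 329.4 and 351.7 FPKM in MV4-11 shCYTH4, against 290.7, 259.2 and 264.7 FPKM in MV4-11 shControl. It was 210.4, 206.3 and 275.0 FPKM in THP-1 shCYTH4, against 281.5, 320.0 and 265.9 FPKM in THP-1 shControl. The fatty acid sums overlapped in both lines, through MV4-11 replicate 1 and THP-1 replicate 3 of shCYTH4.

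Leaving out THP-1 shCYTH4 replicate 3 raised the count called lower in THP-1 to 11 members (of 33, against 3.55% of all tested genes then called lower), from each class but STARD4 and LPIN1. They were ACAT2 and FDPS; FDFT1, SQLE and LSS; INSIG1 and SREBF1; SCD, FADS1 and FADS2; and ABCA1. The same omission raised the calls over all genes to 835, against 204 with it, so the rise was not limited to lipid genes. The difference of responses was then called for 12 members, all higher in MV4-11, while 913 of all tested genes were called, against 107 with it; 3.90% of all tested genes were then called higher. Among the 12 were SCD (1.70, adjusted p = 2.15e-04), INSIG1 (1.57, adjusted p = 0.00126), SREBF1 (1.40, adjusted p = 0.00169) and ABCA1 (2.91, adjusted p = 0.00209). THP-1 shCYTH4 replicate 3 was picked from the members' own values, so these calls are description and add no support. Leaving out THP-1 shCYTH4 replicate 1 or 2, or shControl replicate 2, left 0 members called in THP-1 and 0 for the difference.

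Between the control libraries of the lines, sterol, carrier, lipin and LXR genes were called and the 6 fatty acid genes tested were not. Comparing MV4-11 shControl with THP-1 shControl, 10 of 33 members (30.3%) were called, against 51.4% of all tested genes; 2 were higher in MV4-11, against 24.6% of all tested genes, and 8 lower, against 26.7%. Groups that did not overlap were higher in MV4-11 for 2 members, against 29.4% of all tested genes, and lower for 13, against 31.2%. SC5D showed the largest gap in the synthesis pathways, with 0.480, 0.631 and 0.711 FPKM in MV4-11 shControl, against 2.59, 2.09 and 2.36 FPKM in THP-1 shControl (log2 difference -1.92, SE 0.19, adjusted p = 5.10e-07). HMGCS1 was lower in MV4-11 (-1.72, SE 0.23, adjusted p = 1.11e-05), as were FDPS (-0.80, SE 0.13, adjusted p = 1.03e-04), STARD4 (-1.54, SE 0.26, adjusted p = 1.34e-04) and ABCA1 (-2.06, SE 0.38, adjusted p = 5.28e-04).

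MSMO1, the sterol methyl oxidase, had 2.73, 4.73 and 3.55 FPKM in MV4-11 shControl, against 9.16, 5.96 and 5.85 FPKM in THP-1 shControl. Its groups were apart (-0.91, SE 0.28, adjusted p = 0.0146), and the call was lost without replicate 1 of either group (adjusted p = 0.0663 without the MV4-11 one and 0.0797 without the THP-1 one). HSD17B7, the sterol ketone reductase, had 1.34, 1.59 and 1.58 FPKM in MV4-11 shControl, against 2.34, 2.26 and 1.78 FPKM in THP-1 shControl (-0.48, SE 0.19, adjusted p = 0.0426), and LPIN1 was also lower (-0.54, SE 0.19, adjusted p = 0.0254). Both were weak calls: HSD17B7 kept it in 10 of 22 alternatives and LPIN1 in 13 of 22. NSDHL, the sterol decarboxylase encoded on the X chromosome, had 23.7, 23.4 and 22.6 FPKM in MV4-11 shControl, against 14.2, 14.3 and 15.3 FPKM in THP-1 shControl. NSDHL (0.69, SE 0.15, adjusted p = 8.96e-04) and MYLIP (0.75, SE 0.18, adjusted p = 0.00219) were the members higher in MV4-11, with no overlap between groups. None of the 6 fatty acid genes tested was called between the lines, 3 being above 0 and 3 below; the interval was -0.33 to 0.55 for FASN and -0.73 to 0.93 for FADS2. ELOVL6, which the filter on low values left out, was called higher in MV4-11 when no filter was applied (adjusted p = 1.22e-06), with at most 0.026 FPKM in any THP-1 library.

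**Figure D4:**
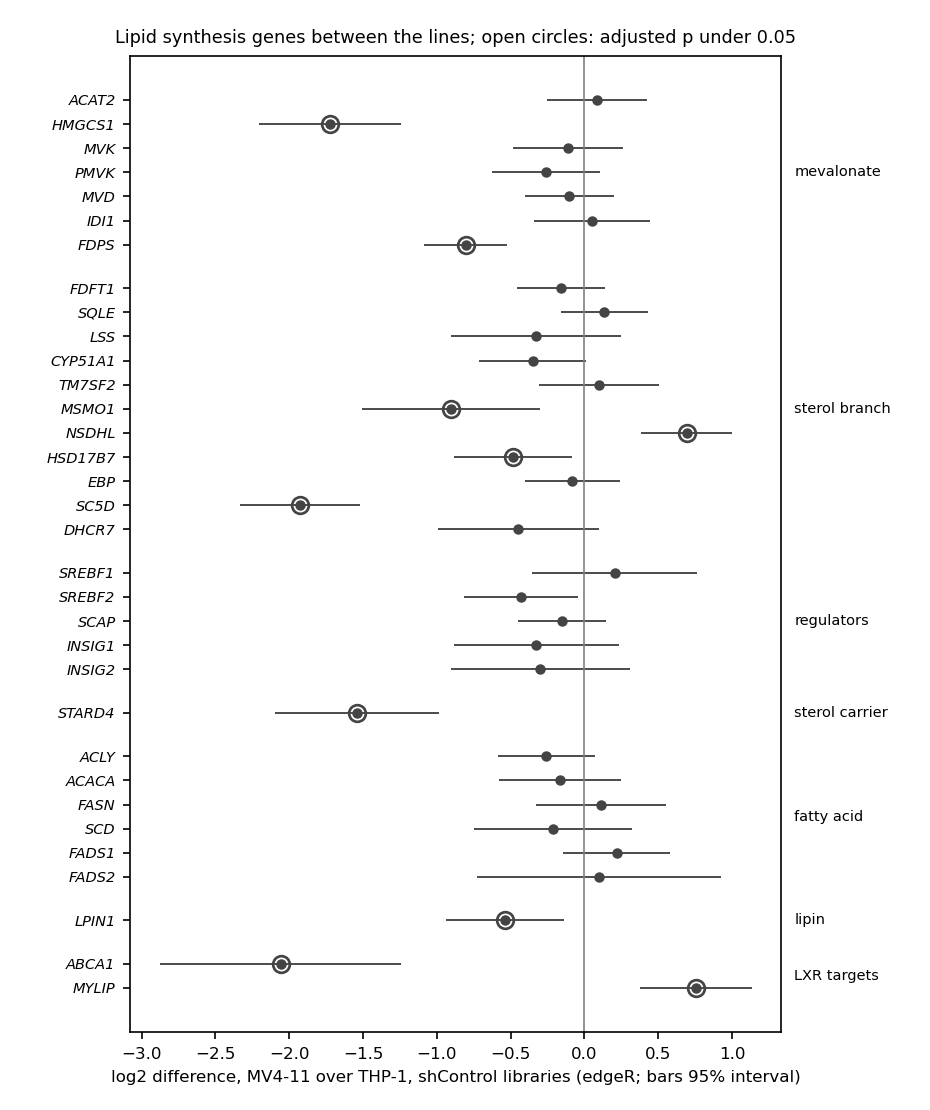
Fitted log2 difference of MV4-11 over THP-1 in the shControl libraries for the 33 tested members, with 95% intervals; open circles mark adjusted p under 0.05. The 10 marked genes lie among the mevalonate, sterol branch, carrier, lipin and LXR genes, and the 6 fatty acid genes lie between -0.26 (ACLY) and 0.22 (FADS1).

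On the FPKM scale, which allows for transcript length, the members spanned means over the 12 libraries of 0.155 FPKM (ABCG1) to 79.5 FPKM (FASN). After FASN came FDFT1 at 77.0, ACLY at 73.7, SCD at 69.9 and FDPS at 64.5 FPKM, and the ranges of these 5 genes over the libraries overlapped. SC5D, HSD17B7, STARD4, MVK, ABCA1, LPIN1 and INSIG2 lay between 1 and 2 FPKM.

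Other genes of these pathways, taken as lists, showed no call with shCYTH4 against shControl in either line, against 1.13% of all tested genes in MV4-11 and 1.65% in THP-1. These were 17 genes of isoprenoid and sterol metabolism, 20 of fatty acid activation, elongation and esterification, 9 of the LXR system and 12 of sterol handling. Their median changes lay between -0.05 and 0.13 in MV4-11 and between -0.13 and 0.10 in THP-1. For the difference of responses, 0 of the isoprenoid and sterol, fatty acid and sterol handling genes were called, against 0.866% of all tested genes, and their medians were 0.08, 0.07 and -0.10. Between the control libraries, where 24.6% of all tested genes were higher and 26.7% lower in MV4-11, 5 fatty acid genes of these lists were higher and 10 lower in MV4-11, with 5 and 3 for isoprenoid and sterol genes, 3 and 4 for LXR genes, and 0 and 6 for sterol handling.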

How the data were processed

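Poly(A) RNA of MV4-11 and THP-1 cells was sequenced from strand-marked paired-end libraries, per the labels. The deposited table gives an estimated count per gene and library, whole numbers not normalized per the file headers, and FPKM as the authors made it. The submitters' processing notes name fastp, StringTie and edgeR. Aligner, genome build, annotation and strand use in counting are not stated, so members that overlap another gene are uncertain. Of low counts up to 20, 32.2% are multiples of 4, so 1 count may not be 1 fragment, which was not tested. Column names carry SC and Sh, read as shControl and shCYTH4. All 35 member identifiers are in GENCODE release 29 at overlapping positions.

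Genes reaching 1 FPKM in at least 3 libraries were tested with edgeR 4.0.16 in R 4.3.3 (TMM factors 0.916 to 1.08, 4 group means, 8 residual degrees of freedom, quasi-likelihood with robust moderation). Adjustment was by Benjamini-Hochberg over every tested gene. Within each line shCYTH4 was set against shControl; the MV4-11 response minus that of THP-1, and the MV4-11 controls against the THP-1 controls, were tested as well. The responses, their difference and the line contrast share control libraries. Altogether 23 alternatives were run, among them DESeq2 1.42.0 and limma 3.58.1, and the code was tested on simulated data. Shown in full were members called in any contrast and the 2 of each class with the largest change in each line. SQLE, SREBF2 and FASN were added for their role, SQLE after its values were seen. The members, classes and lists were chosen with earlier results of these data known. Intervals cover the spread between these libraries. A result for 1 gene outside the set is not reported here.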

Additional observations from a re-analysis of the deposited data

Results flagged for a closer look

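For 3 members the test of the difference between the lines passed the threshold, and each had the more positive response in MV4-11. The difference, MV4-11 response minus THP-1 response on the log2 scale, was 1.01 for ACAT2, 0.98 for FDFT1 and 0.94 for FDPS (edgeR adjusted p = 0.0495, 0.0331 and 0.0288). All 3 shCYTH4 libraries lay above the controls in MV4-11 and below them in THP-1 for each of these genes. The genes were flagged on the same values, so this adds no support. Taken singly, 16.0% of all tested genes were apart and higher in MV4-11 and 6.63% apart and lower in THP-1. The call of the difference was lost in 17 (ACAT2), 10 (FDFT1) and 9 (FDPS) of 22 alternatives. CYTH4 itself was not called between the MV4-11 groups (log2 change 0.01, 95% interval -0.39 to 0.40), and its responses differed by 0.90 between the lines (adjusted p = 0.126). LYZ moved the other way from these members, with a difference of responses of -1.67 (adjusted p = 3.19e-04); its part in the result was not tested.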

How the results depend on the processing

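Over 23 alternatives, 37 results for single members gave 735 values with the same direction and side of the threshold. Another 16 newly passed, 73 no longer passed and 11 changed sign, and the cause was not tested. This tally does not measure how steady directions are. The followed members were those called or with the largest changes. The stricter threshold reused the same fit, and leaving out a library of the other line left a change within a line nearly as it was. The sign changes were those of MYLIP in THP-1 (main value -0.01; 0.0016 without a filter, 0.016 at a mean FPKM of at least 5, 0.088 and 0.10 by limma on log2 FPKM with pseudocounts of 1 and 0.1, 0.0069 with the THP-1 libraries alone, and -0.15 to 0.14 without single libraries) and of STARD4 in THP-1 (main value 0.08; -0.22 to 0.33 without single libraries).

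The count of members called in THP-1, 2 in the main analysis, was 5 by DESeq2 (612 of all tested genes, against 204 in the main analysis), 1 with the THP-1 libraries alone, 0 at an adjusted p under 0.01 and 0 to 11 without single libraries. It was 0 without shCYTH4 replicate 1 or 2 or shControl replicate 2, 1 without shControl replicate 3 or MV4-11 shCYTH4 replicate 2, 4 without MV4-11 shCYTH4 replicate 1 and 11 without shCYTH4 replicate 3 (835 of all tested genes). In MV4-11, 0 in the main analysis, it was 1 by DESeq2 (451 of all tested genes, against 139) and 0 to 2 without single libraries, the 2 arising without THP-1 shCYTH4 replicate 3 (398 of all tested genes). For the difference of responses, 3 in the main analysis, it was 7 by DESeq2 (440 of all tested genes, against 107), 0 at an adjusted p under 0.01 and 0 to 12 without single libraries. It was 0 without THP-1 shCYTH4 replicate 1 or 2, THP-1 shControl replicate 2 or 3, MV4-11 shCYTH4 replicate 2 or MV4-11 shControl replicate 2, 1 without replicate 1 of THP-1 shControl or replicate 3 of MV4-11 shControl, and 12 without THP-1 shCYTH4 replicate 3 (913 of all tested genes). Between the control libraries, 10 in the main analysis, it was 6 at a mean FPKM of at least 5, where fewer members were tested, and 7 to 11 without single libraries.

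Class medians moved by less than 1 SD between libraries of a group (0.093 to 0.38 on the log2 scale, by class and comparison) in 250 cases and by more in 11. Those of the LXR targets rest on few genes: without a filter ABCG1 enters and the median was -1.53 in THP-1, 2.02 for the difference and 0.82 between the controls, while at a mean FPKM of at least 5 MYLIP alone remains and it was 0.016, 0.38 and 0.65; by limma on log2(FPKM + 1) the difference was 0.89. Without a filter the fatty acid median between the controls was 0.17. Without single libraries the sterol gene median was 0.17 to 0.27 in MV4-11, 0.51 to 0.84 for the difference and -0.25 to -0.064 between the controls; it was -0.42 to -0.21 in THP-1. Within 1 SD, yet by over 1.5 times, the medians moved in MV4-11 for fatty acid genes (0.15 to 0.46) and for the LXR targets (0.40 to 0.80), and between the controls for fatty acid genes (-0.14 to 0.048, main value -0.03).

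With the replicate number as a block, 0 members were called in THP-1 and 0 for the difference, with 0 in MV4-11 and 8 between the controls. Libraries of the same number share a number and no more: their deviations correlated at -0.17 to -0.03 in MV4-11 and -0.21 to 0.09 in THP-1, and 1 of 6 shCYTH4 libraries correlated best with its own number.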
